A study of Mus musculus with 8 samples.

Results

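Class II presentation genes were followed in tumour nodules of the lung across 4 treatments. The group was defined by name and held 10 of the 52459 gene symbols in the count table. Its members are the class II chains H2-Aa, H2-Ab1 and H2-Eb1, the invariant chain Cd74, the peptide exchange factors H2-DMa, H2-DMb1, H2-DMb2, H2-Oa and H2-Ob, and the transactivator Ciita. All 10 symbols were present, and 8 had enough counts to test. H2-Oa and H2-Ob did not.

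RNA came from mice of the model labelled KrasTrp53, on a mixed background, and was read in 8 libraries, 2 for each of vehicle, JQ1, anti-PD-1, and both agents in combination. JQ1 blocks the bromodomains of BET proteins, by which these hold on to acetylated histones. Anti-PD-1 antibody binds a checkpoint receptor that restrains T cells. The design asks how the nodules differ after either agent and after both. All groups share the tumour model. Its alleles and driver, the age of the mice and the doses and times of treatment are not stated in the sources used here. Nothing in the labels says whether the libraries in a group are from different animals, so p-values measure how far these samples spread.

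The shallowest library, combination replicate 1, held 2719816 counts and the deepest, vehicle replicate 2, held 15224108. The most abundant row, Gm42418, a lincRNA that overlaps a ribosomal RNA gene on the opposite strand, took 19.8% ± 1.21 (SD, n = 2) of counts in vehicle, 26.1% ± 5.33 with JQ1, 20.6% ± 0.207 with anti-PD-1 and 43.9% ± 4.71 with the combination. Xist was high in combination replicate 1, JQ1 replicate 1 and anti-PD-1 replicate 2 (427 to 691 CPM) and low in the other 5 libraries (0 to 1.15 CPM). Xist is expressed in female cells, so within each treated group the 2 libraries differed in sex and were not from the same animal. For the vehicle group this cannot be told, and its spread may be technical. Levels are in CPM, counts scaled to a common library size with TMM factors.

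MHC class II molecules are dimers of an alpha and a beta chain that show peptides from endosomes to CD4+ T cells. H2-Aa and H2-Ab1 encode the alpha and beta chain of the A molecule and H2-Eb1 the beta chain of the E molecule. The invariant chain, encoded by Cd74, blocks the groove until the vesicle is reached. H2-DM then exchanges its remnant for a peptide, and H2-O restrains H2-DM. Dendritic cells, B cells and macrophages carry class II, and so do alveolar type 2 cells of the lung. Ciita encodes a coactivator without DNA-binding activity of its own that is recruited to class II promoters by RFX on the X box and NF-Y on the Y box.

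The promoter windows below show this X and Y arrangement, for H2-Aa, the member called lower with JQ1, for H2-Eb1, whose levels departed from it, and for the close copies H2-DMb1 and H2-DMb2. RefSeq promoter entries (GRCm38.p6) were matched for 7 of the 10 members. Each sequence is in the direction of the gene, with the X-type match, GCAAC or AACNNATG or both where they overlap, and the Y-type match GATTGG in capitals.
H2-Aa: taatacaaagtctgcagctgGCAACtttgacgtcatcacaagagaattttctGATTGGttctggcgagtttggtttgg
H2-Eb1: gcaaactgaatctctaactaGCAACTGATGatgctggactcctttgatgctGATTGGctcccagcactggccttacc
H2-DMb1: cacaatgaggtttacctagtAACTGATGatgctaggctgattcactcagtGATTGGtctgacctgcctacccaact
H2-DMb2: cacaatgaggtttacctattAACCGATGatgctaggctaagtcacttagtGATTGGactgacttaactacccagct

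The H2-Aa window is chr17:34287847-34287924 on the minus strand. The others are on the plus strand, H2-Eb1 at chr17:34305756-34305832, H2-DMb1 at chr17:34153079-34153154 and H2-DMb2 at chr17:34145108-34145183. In H2-Aa the Y-type match starts 49 bases before the transcription start, with 27 bases between the matches. The H2-DMb1 and H2-DMb2 windows are identical at 66 of 76 positions. Searched on both strands of the 250 bases before the start, GATTGG occurred in 14.6% of 32851 promoters. GCAAC followed by GATTGG within 45 bases occurred in 0.6% and AACNNATG followed by GATTGG in 0.119%. All 7 matched members had GATTGG, and 6 of them, H2-Aa, H2-Eb1, H2-DMb1, H2-DMb2, H2-Oa and H2-Ob, had at least 1 of the pairs, and H2-Eb1 and H2-Ob had both. H2-DMa had GATTGG in 1 of 2 promoter entries and neither pair. The motifs were chosen with these sequences in view, and a match describes letters only.

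In vehicle libraries the members spanned a wide range of levels per length, in CPM per kilobase of merged exons (GENCODE vM21). Cd74 was highest at 349 ± 103 (SD, n = 2), followed by H2-Aa at 55.6 ± 0.924 and H2-Ab1 at 9.63 ± 0.0932. These 3 were apart by more than their spread. H2-DMb1 at 1.53 ± 0.243 and H2-DMb2 at 1.50 ± 0.408 followed, then H2-DMa at 0.937 ± 0.134, Ciita at 0.862 ± 0.0748 and H2-Eb1 at 0.835 ± 0.263. H2-DMb1 and H2-DMb2 did not differ beyond their spread, nor did H2-DMa, Ciita and H2-Eb1. H2-Oa and H2-Ob were lowest, at 0.102 ± 0.144 and 0.0266 ± 0.0226. Libraries were captured with probes, so levels of different genes also reflect their capture. Over the 8 libraries Cd74 held 67.8% of the counts of the 10 members and H2-Aa 25.8%.

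H2-Aa, the alpha chain of the A molecule, was the member with the clearest difference. It lies on chromosome 17 at 34282744 to 34287823 (GRCm38, minus strand). It stood at 209 and 214 CPM in vehicle replicates 1 and 2, 309 and 326 CPM in anti-PD-1 replicates 1 and 2, 45.2 and 16.7 CPM with JQ1, and 17.7 and 77.6 CPM with the combination. The 4 libraries without JQ1 were all above the 4 libraries with it. Against the mean of the libraries without JQ1, in both backgrounds, H2-Aa fell by 2.74 on the log2 scale (SE 0.47), a 6.67-fold lower level. The adjusted p was 0.0239 (edgeR, quasi-likelihood, Benjamini-Hochberg). Between single groups the log2 fold change was −2.77 (SE 0.67, adjusted p = 0.443 in edgeR) for JQ1 against vehicle, −2.12 (SE 0.65, adjusted p = 0.0916 in edgeR) for the combination against vehicle and −2.70 (SE 0.67, adjusted p = 0.0605 in edgeR) for the combination against anti-PD-1. None of these 3 passed. In bulk tissue, fewer cells that carry class II and less class II RNA per cell cannot be told apart.

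H2-Aa was the only one of the 8 tested members called for JQ1 over both backgrounds, 1 of 8 lower and 0 higher. Of all 14085 tested genes 8.28% were called in that comparison, 4.05% lower and 4.22% higher. H2-Aa, H2-Ab1, Cd74 and H2-DMb2 had an unadjusted p under 0.05, beside 31.7% of all tested genes. The call was lost without vehicle replicate 1 (adjusted p = 0.0944 in edgeR), vehicle replicate 2 (0.103), anti-PD-1 replicate 1 (0.0646) or anti-PD-1 replicate 2 (0.0689), with log2 fold changes of −2.76, −2.74, −2.77 and −2.73. With Gm42418 removed from library sizes the log2 fold change was −2.76. Among the 3 libraries with high Xist, H2-Aa was at 45.2 and 17.7 CPM with JQ1 given and 326 CPM without. Among the 5 with low Xist it was at 16.7 and 77.6 CPM with JQ1 and at 209, 214 and 309 CPM without.

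**Figure D1:**
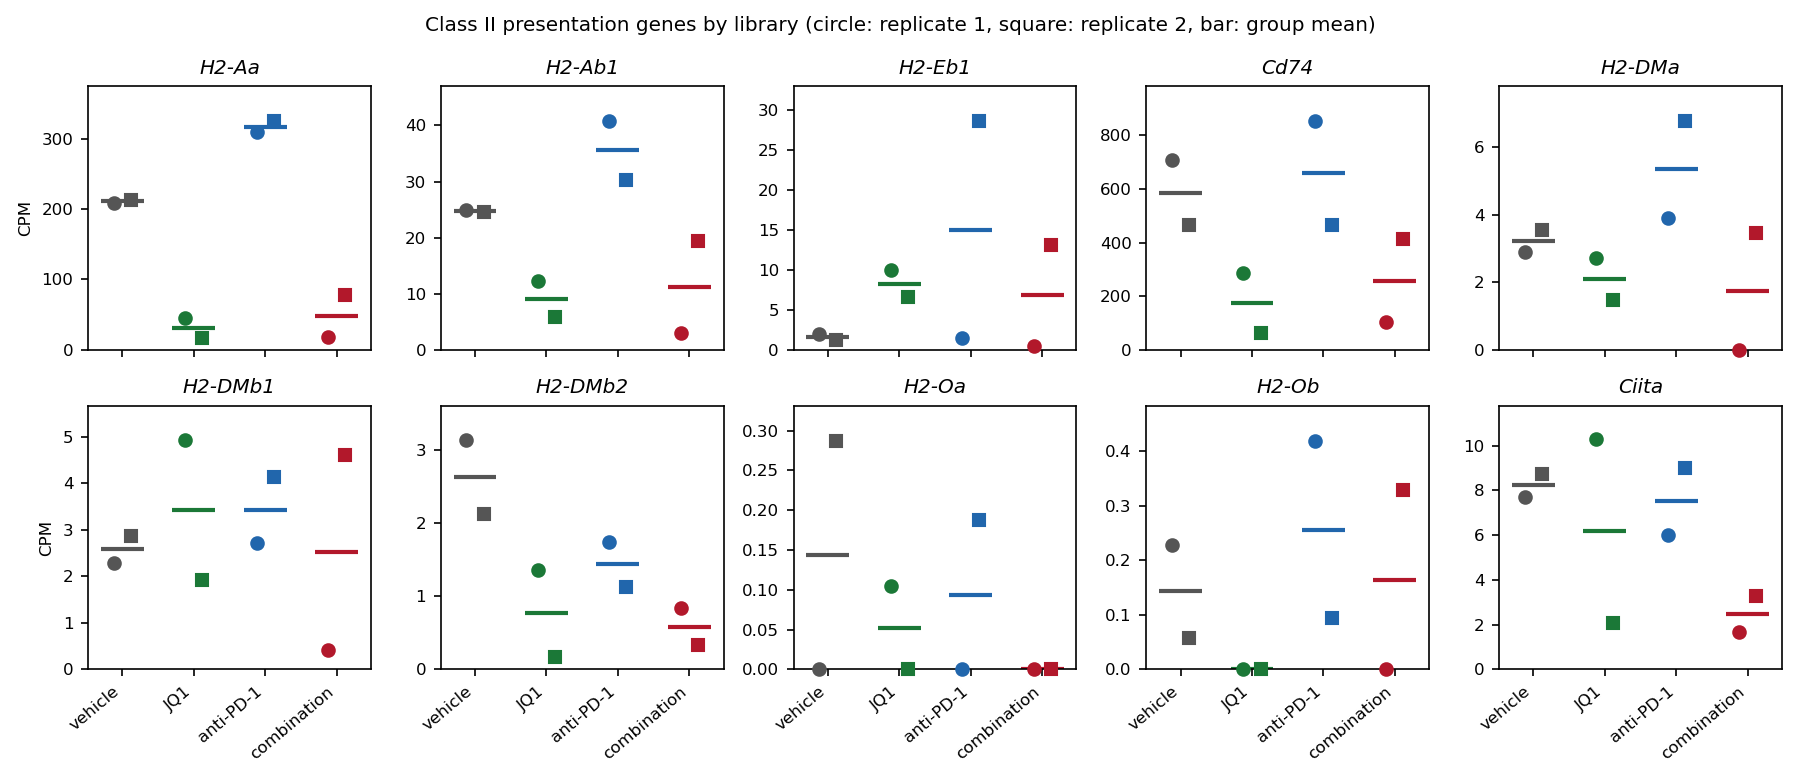
CPM of each member (vertical axis, linear from 0, own scale per gene) in the 2 libraries of each group; circles are replicate 1, squares replicate 2 and bars group means. H2-Aa, H2-Ab1 and Cd74 are lower in the 4 libraries with JQ1 than in the 4 without, while H2-Eb1 reaches 28.6 CPM in anti-PD-1 replicate 2 and 1.47 CPM in anti-PD-1 replicate 1.

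H2-Ab1, the beta chain partner of H2-Aa, followed the same order at lower counts. It was at 24.9 and 24.6 CPM in vehicle, 40.9 and 30.3 CPM with anti-PD-1, 12.2 and 5.84 CPM with JQ1, and 2.95 and 19.4 CPM with the combination. Again the 4 libraries with JQ1 lay below the 4 without. Over both backgrounds the log2 fold change was −1.52 (SE 0.45, adjusted p = 0.0680 in edgeR), short of the threshold. DESeq2 called it, with an adjusted p of 0.00203, and so did limma voom, with an adjusted p of 0.0389, while limma trend did not (adjusted p 0.0606). With 1 library left out, the log2 fold change in edgeR lay between −2.54, without combination replicate 2, and −1.17, without combination replicate 1.

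Cd74, the invariant chain and the most abundant member, stood at 709 and 464 CPM in vehicle, 855 and 465 CPM with anti-PD-1, 285 and 63.0 CPM with JQ1, and 102 and 414 CPM with the combination. Combination replicate 2, at 414 CPM, came close to the lowest library without JQ1. The groups with and without JQ1 did not overlap, and the log2 fold change over both backgrounds was −1.55 (SE 0.59, adjusted p = 0.128 in edgeR). In JQ1 replicate 2 and combination replicate 1, H2-Aa, H2-Ab1 and Cd74 were lower than in the other library of the same group. Without overlap between libraries with and without JQ1, 3 of 8 members were lower and 0 higher, beside 9.35% of all tested genes that were lower in this way and 10.2% that were higher.

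H2-Eb1, the beta chain of the E molecule, departed from the A chains and from its own groups. It was at 1.99 and 1.26 CPM in vehicle, 9.96 and 6.62 CPM with JQ1, 1.47 and 28.6 CPM with anti-PD-1, and 0.421 and 13.2 CPM with the combination. Its libraries fell into a low set, both vehicle libraries, anti-PD-1 replicate 1 and combination replicate 1, and a high set of the other 4, with no value between 1.99 and 6.62 CPM. The log2 fold change was 2.35 (SE 1.42) for JQ1 against vehicle, 3.21 (SE 1.44) for anti-PD-1 against vehicle and 2.21 (SE 1.45) for the combination against vehicle. None passed, and their adjusted p in edgeR were 0.569, 1 and 0.361. The sign turned to −0.13 for anti-PD-1 without anti-PD-1 replicate 2, and to −1.93 for the combination without combination replicate 2.

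The gene of the E alpha chain, in the same region, is annotated as the polymorphic pseudogene H2-Ea-ps (chromosome 17, 34341959 to 34344645). H2-Ea-ps had few counts. It held 8 and 11 counts in vehicle, 8 in anti-PD-1 replicate 1 and 1 in combination replicate 1, the 4 libraries with low H2-Eb1. It held 1 and 0 counts with JQ1, 1 in anti-PD-1 replicate 2 and 0 in combination replicate 2, the 4 libraries with high H2-Eb1. In CPM this is 0.421 to 0.631 in the first 4 libraries and 0 to 0.105 in the others. The count of 1 in combination replicate 1 rests on the shallowest library. The labels give the strain as mixed background, class II genes differ strongly between mouse strains, and the part of the alleles of each mouse in these levels was not tested.

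**Figure D2:**
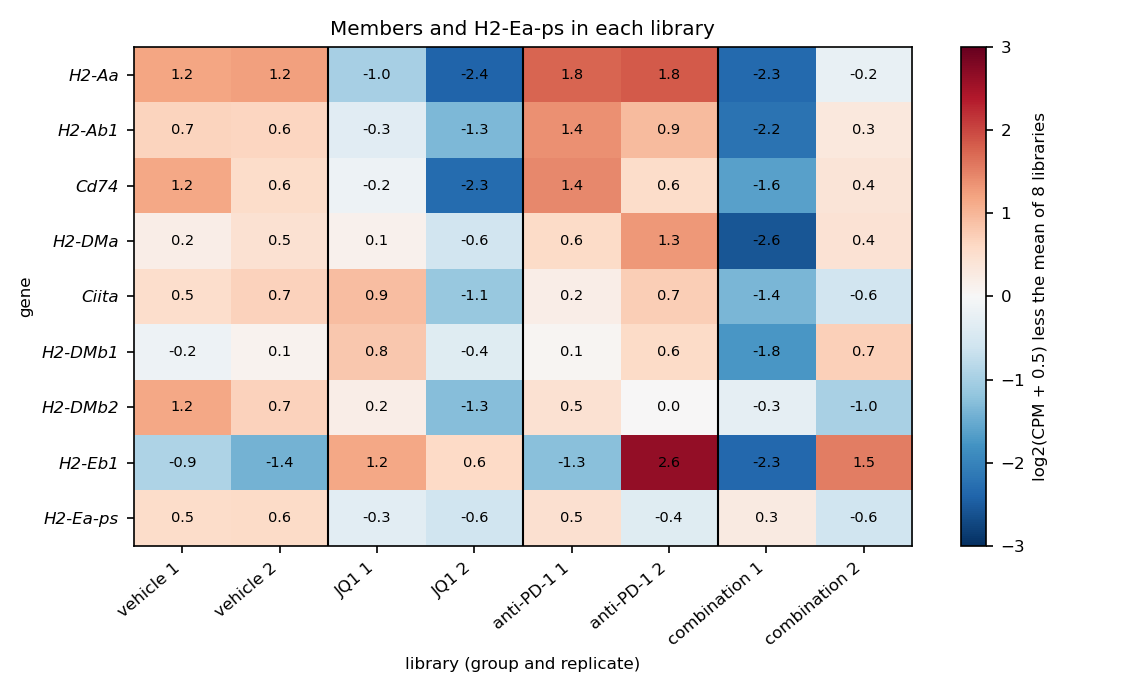
log2(CPM + 0.5) of each gene (rows) in each library (columns, 2 per group between the black lines), less the gene's mean over the 8 libraries. H2-Aa is at 1.8 in both anti-PD-1 libraries and at −2.4 in JQ1 replicate 2, and the rows of H2-Eb1 and H2-Ea-ps are of opposite sign in all 8 libraries.

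Of the peptide exchange factors, H2-DMb2, a beta chain of H2-DM, was at 3.13 and 2.12 CPM in vehicle, 1.36 and 0.174 CPM with JQ1, 1.75 and 1.13 CPM with anti-PD-1, and 0.842 and 0.330 CPM with the combination. Both vehicle libraries lay above all 6 treated libraries, but the counts were small, 78 in vehicle and 4 in the combination. The combination differed from vehicle by −2.35 (SE 1.01, adjusted p = 0.166 in edgeR), and JQ1 over both backgrounds was at −1.64 (SE 0.66, adjusted p = 0.122 in edgeR). With 1 library left out the latter lay between −2.68, without JQ1 replicate 1, and −1.23, without JQ1 replicate 2.

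The other beta chain gene, H2-DMb1, showed no such order, at 2.29 and 2.87 CPM in vehicle, 4.93 and 1.92 CPM with JQ1, 2.72 and 4.13 CPM with anti-PD-1, and 0.421 and 4.61 CPM with the combination. JQ1 over both backgrounds was at 0.08, with a 95% confidence interval of −1.07 to 1.22. H2-DMb1 and H2-DMb2 are close copies. Of the 50-base words in their transcripts, 22.7% of those of H2-DMb1 and 25.9% of those of H2-DMb2 also occur in another gene, for the most part the other copy, so how reads were divided between them is uncertain.

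H2-DMa, the alpha chain of H2-DM, was at 2.90 and 3.56 CPM in vehicle, 2.73 and 1.48 CPM with JQ1, 3.91 and 6.76 CPM with anti-PD-1, and 3.46 CPM in combination replicate 2. In combination replicate 1 it had 0 counts, which allows up to 1.26 CPM for 3 counts in that library. JQ1 over both backgrounds was at −0.98 (SE 0.56, adjusted p = 0.246 in edgeR). It was at −4.77 without combination replicate 2, which leaves the library with 0 counts alone in its group. Without combination replicate 1 it was at −0.63. H2-DMa overlaps Brd2, a BET protein gene on the opposite strand, and shares 8.43% of its 50-base words with it. Brd2 itself fell by 0.82 (SE 0.18, adjusted p = 0.0291 in edgeR) in the same comparison, and the share of its reads in H2-DMa counts was not tested.

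H2-Oa and H2-Ob, the chains of the H2-DM inhibitor that is typical of B cells, were barely detected. H2-Oa had 8 counts in all libraries, 5 of them in vehicle replicate 2, and H2-Ob had 13, of which 6 were in anti-PD-1 replicate 1. No difference in either was detectable at this depth.

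Ciita, on chromosome 16 at 10480059 to 10528418, was at 7.71 and 8.72 CPM in vehicle, 10.3 and 2.09 CPM with JQ1, 6.01 and 9.01 CPM with anti-PD-1, and 1.68 and 3.30 CPM with the combination. It was low in both combination libraries and in JQ1 replicate 2, while JQ1 replicate 1 was the highest of all 8 libraries. The combination against vehicle was at −1.62 (SE 0.70, adjusted p = 0.171 in edgeR) and JQ1 against vehicle at −0.42 (SE 0.62, adjusted p = 0.809 in edgeR). JQ1 over both backgrounds was at −0.96 (SE 0.47, adjusted p = 0.189 in edgeR). With 1 library left out this value lay between −1.75, without JQ1 replicate 1, and −0.59, without JQ1 replicate 2. In JQ1 replicate 1, H2-Aa was thus at 45.2 CPM with Ciita at 10.3 CPM, against 209 to 214 CPM of H2-Aa with Ciita at 7.71 to 8.72 CPM in vehicle.

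Across the 8 libraries, log2(CPM + 0.5) of Ciita was set against each of the other 7 tested members. Pearson's r was 0.75 for H2-Aa (exact permutation p = 0.0573, Spearman's rho 0.55, exact permutation p = 0.171). It was 0.75 for H2-Ab1 (exact permutation p = 0.0567, rho 0.48, exact permutation p = 0.243), 0.74 for Cd74 (exact permutation p = 0.0666, rho 0.40, exact permutation p = 0.327) and 0.76 for H2-DMa (exact permutation p = 0.0281, rho 0.52, exact permutation p = 0.197). For H2-DMb1, H2-DMb2 and H2-Eb1 r was 0.69, 0.72 and 0.27 (exact permutation p = 0.0719, 0.0600 and 0.510), and rho was 0.74, 0.55 and 0.43 (exact permutation p = 0.0458, 0.171 and 0.299). None of the 7 relations passed with Benjamini-Hochberg, where the smallest adjusted exact permutation p was 0.0839 for r and 0.321 for rho. All tests were two-sided. Without JQ1 replicate 2 and combination replicate 1, the libraries farthest from the median of Ciita, r became 0.13 for H2-Aa, −0.14 for H2-Ab1, −0.20 for Cd74, 0.07 for H2-DMa, −0.11 for H2-DMb1, 0.65 for H2-DMb2 and −0.07 for H2-Eb1. Apart from that with H2-DMb2, the relations were not seen without those libraries. Leaving out the extremes of Ciita narrows its range, which can lower r by itself, and few libraries remain. The 8 libraries also pool the 4 treatment groups, so r carries differences between treatments.

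**Figure D3:**
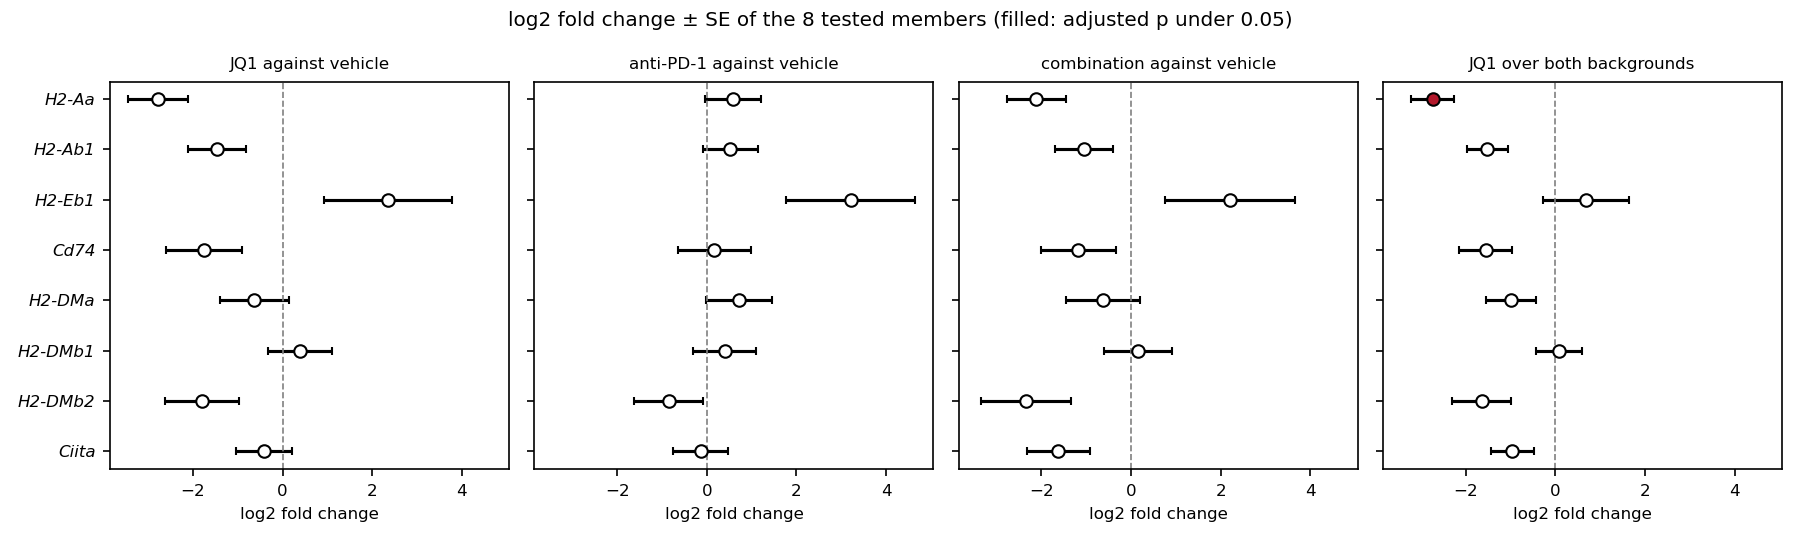
log2 fold change (horizontal axis) with its standard error for the 8 tested members in 4 comparisons; filled points have an adjusted p under 0.05. H2-Aa for JQ1 over both backgrounds, at −2.74, is the one filled point, and H2-Eb1 has the widest error, between 0.96 and 1.45.

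For anti-PD-1 against vehicle no member was called. H2-Aa was at 0.59 (95% confidence interval −0.84 to 2.02), H2-Ab1 at 0.53 (−0.86 to 1.92), Cd74 at 0.17 (−1.75 to 2.10) and Ciita at −0.13 (−1.50 to 1.23). Both anti-PD-1 libraries were above both vehicle libraries for H2-Aa, H2-Ab1 and H2-DMa, 3 of 8 tested members, beside 14.4% of all tested genes, and below them for H2-DMb2, beside 16% of all tested genes. edgeR called 0 of 8 members and 0% of 14085 tested genes. At an unadjusted p under 0.05 there were 0 members, beside 1.97% of all tested genes. DESeq2, limma voom and limma trend also called 0 members.

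For JQ1 against vehicle edgeR called 0 of 8 members and 0% of 14085 genes. Members at an unadjusted p under 0.05 were H2-Aa and H2-Ab1, beside 10.1% of all tested genes. DESeq2 called H2-Aa, limma voom and limma trend called 0. The median log2 fold change of the 8 tested members was −1.04, beside 0.07 over all tested genes. Both JQ1 libraries lay below both vehicle libraries for 5 members, beside 22.9% of all tested genes, and above them for H2-Eb1, beside 26.3%.

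For the combination against vehicle edgeR called 0 of 8 members, where 4.8% of all tested genes were called, 2.36% lower and 2.44% higher. H2-Aa, H2-DMb2 and Ciita had an unadjusted p under 0.05, beside 27.3% of all tested genes, and DESeq2 called H2-Aa, with limma voom and limma trend at 0. The median of the tested members was −1.11, beside 0.07 over all tested genes, and 5 of 8 were lower in both libraries and 0 higher, beside 29.1% and 29.5% of all tested genes. For the combination against anti-PD-1 the median was −1.42, beside 0.05, and all 8 tested members were negative, 6 of them without overlap, beside 26.8% of all tested genes lower and 27.9% higher without overlap. edgeR called 0 of them, beside 4.23% of all tested genes, 2.08% lower and 2.15% higher. DESeq2 called H2-Aa and H2-Ab1, limma voom and limma trend called H2-Aa, and H2-Aa and H2-Ab1 had an unadjusted p under 0.05, beside 27%. The combination against vehicle shares its vehicle libraries with JQ1 against vehicle and its combination libraries with the combination against anti-PD-1.

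Adding the antibody to JQ1 gave 4 positive and 4 negative members, with a median of −0.07. H2-Aa was at 0.66 (95% confidence interval −0.81 to 2.13) and Cd74 at 0.58 (−1.36 to 2.51), and the 2 groups overlapped for all 8 tested members, beside 19.7% of all tested genes that were higher without overlap and 21.3% lower. edgeR called 0.0142% of all tested genes higher there and 0.0071% lower. Over both backgrounds the antibody gave H2-Aa a log2 fold change of 0.62 (SE 0.45) and H2-Eb1 one of 1.53 (SE 0.98). All 8 overlapped between libraries with and without the antibody, beside 1.36% of all tested genes higher and 1.25% lower without overlap. The interaction, which asks whether JQ1 acted otherwise with the antibody present, was 0.07 for H2-Aa (95% confidence interval −1.97 to 2.11) and −3.35 for H2-Eb1 (−7.96 to 1.26). In each of these 3 comparisons edgeR called 0 of 8 members, DESeq2, limma voom and limma trend called 0, and 0 members had an unadjusted p under 0.05. The shares of all tested genes called by edgeR were 0.0213%, 0.0142% and 0%, and 14.1%, 10.1% and 6.25% had an unadjusted p under 0.05.

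Other genes of the class II pathway, from lists drawn up by role, moved in both directions for JQ1 over both backgrounds. Among factors that act on class II or Ciita promoters, 1 of 16 tested rose and 3 fell, beside 4.22% and 4.05% of all tested genes. Nfyc, a subunit of the Y box factor NF-Y, fell by 0.99 (SE 0.19, adjusted p = 0.0220 in edgeR), from 52.3 ± 1.74 CPM (SD, n = 2) in vehicle to 28.4 ± 0.267 CPM with JQ1 and 22.1 ± 1.45 CPM with the combination. Spi1, the myeloid factor PU.1, fell by 1.11 (SE 0.30), and Crebbp, a histone acetyltransferase, by 0.74 (SE 0.19), while Atf1, a factor of the CREB family, rose by 0.98 (SE 0.25). The adjusted p of these 3 were 0.0478, 0.0433 and 0.0414 in edgeR. Nfyb, another NF-Y subunit, was at 0.84 without passing. In that list, 0 were called without vehicle replicate 1, vehicle replicate 2, anti-PD-1 replicate 1 or anti-PD-1 replicate 2. There was 1 call, a fall, without JQ1 replicate 2 or combination replicate 2, and there were 2, both falls, without JQ1 replicate 1.

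Endosomal processing genes cut and load peptides for class II. Of 16 tested, 6 rose and 0 fell for JQ1 over both backgrounds, beside 4.22% and 4.05% of all tested genes. Their median was 0.74, beside 0.06 over all tested genes. Ctsb, the protease cathepsin B, rose by 1.17 (SE 0.26, adjusted p = 0.0305 in edgeR), from 43.2 ± 11.0 CPM (SD, n = 2) in vehicle to 87.2 ± 29.9 CPM with JQ1 and 120 ± 21.8 CPM with the combination. Ctsl, cathepsin L, rose by 1.32 (SE 0.30), Cst3, the inhibitor cystatin C, by 1.05 (SE 0.25), and Lamp1, a lysosomal membrane protein, by 0.81 (SE 0.19). Lgmn, the protease legumain, rose by 0.81 (SE 0.22) and March8, a ubiquitin ligase that removes membrane proteins, by 0.80 (SE 0.20). The largest adjusted p of these 5 was 0.0467 in edgeR. Ctss, the protease that trims the invariant chain in antigen-presenting cells, was at 0.15 (SE 0.25) and Ifi30, the reductase of the same compartment, at 0.73 (SE 0.31), and neither passed. Without any 1 of the vehicle or anti-PD-1 libraries, or without combination replicate 2, 0 of these genes were called, and without JQ1 replicate 1 or JQ1 replicate 2, 1 was. Without combination replicate 1, 7 were.

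Interferon gamma induces Ciita, and Ifng had 0 counts in all libraries. Whether Ifng RNA was absent or not captured by the probes cannot be told. Of 9 tested genes of interferon gamma signalling, 1 rose and 0 fell, beside 4.22% and 4.05% of all tested genes. Ifngr1, a chain of the receptor, rose by 1.65 (SE 0.39, adjusted p = 0.0387 in edgeR), with 47.6 ± 39.4 CPM (SD, n = 2) in the combination against 6.48 ± 1.53 CPM in vehicle. The call was lost on leaving out any 1 library other than combination replicate 1, with a value of 0.98 without combination replicate 2, and limma trend did not make it (adjusted p 0.0591). Ifngr2, the other receptor chain, was at 0.83, the kinase Jak1 at −0.55 and Irf9 at 0.46, none of them called. Of 11 class I chain and loading genes 1 fell, beside 4.05% of all tested genes. It was Pdia3, a disulphide isomerase of the loading complex, which fell by 0.76 (SE 0.17, adjusted p = 0.0299 in edgeR). H2-D1 was at −1.02 without passing. The chaperone Canx was at −0.62, Tapbp, the loading factor tapasin, at 0.92 and H2-T23 at 1.09, also short of the threshold. Of 7 other genes of the class II region 1 fell, Brd2, beside 4.05% of all tested genes. The peptide transporter chain Tap2 was at 0.75, the proteasome subunit Psmb9 at 0.50, Ager at 0.44 and Notch4 at 0.18, none of them called. Of 5 costimulation genes none passed, and Cd86, a ligand of CD28, was at 1.70 with an adjusted p of 0.129 in edgeR. Icosl was at 0.96, Tnfsf9 at 0.06 and Fgl1 at −0.46.

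**Figure D4:**
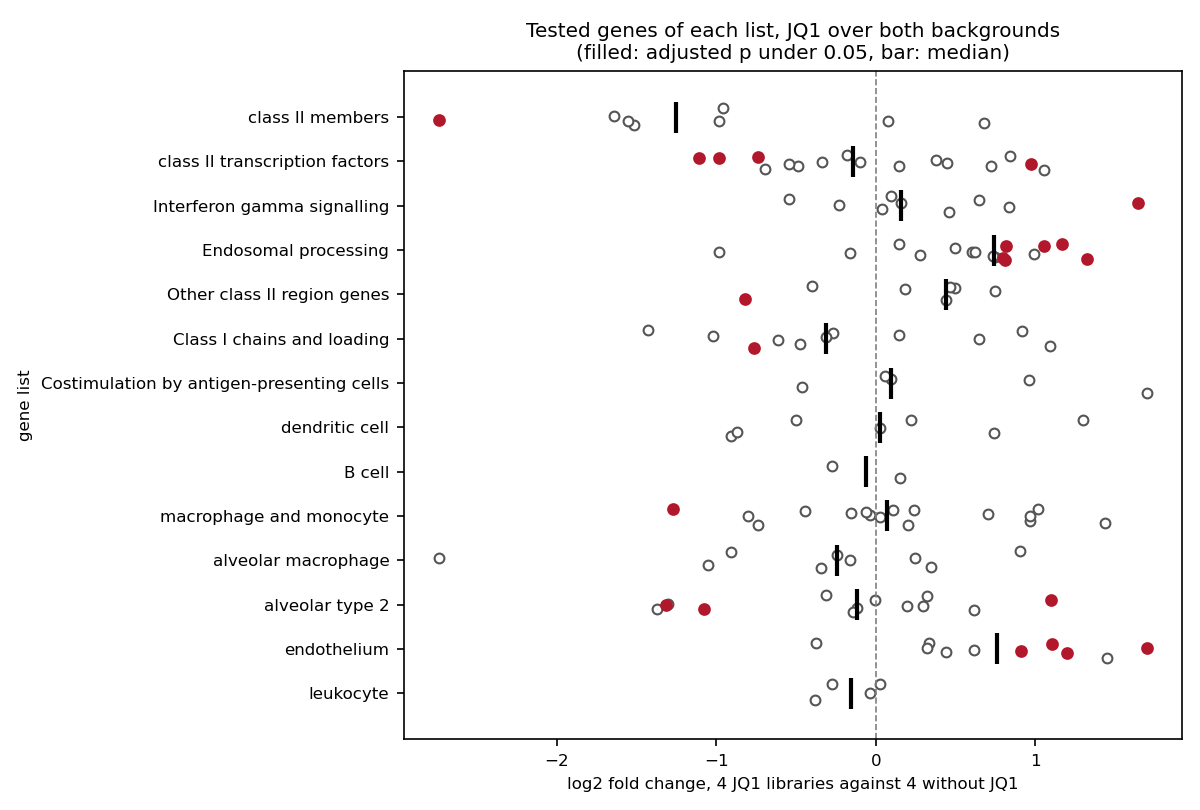
log2 fold change for JQ1 over both backgrounds (horizontal axis) of every tested gene in each list with at least 2 tested genes (rows); filled points have an adjusted p under 0.05 and bars are list medians. The class II members have a median of −1.25, the lowest of the lists shown, and the endosomal processing genes one of 0.74.

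Markers of the cells that carry class II were examined beside these levels. Those of professional antigen-presenting cells had few counts. Capture with probes also shapes counts, so few counts need not mean few cells. Over 8 libraries Flt3, Xcr1, Clec9a and Cd209a, which mark dendritic cells, had 11, 2, 12 and 6 counts, and Ms4a1 and Cd79a, which mark B cells, had 10 and 8. All 18 listed dendritic cell markers and all 12 B cell markers had some counts, but 7 and 2 of them were tested and none passed for JQ1 over both backgrounds. Zbtb46 was at 0.74, Itgax at −0.91, Cd22 at −0.28 and Cd79b at 0.15. Dpp4, which epithelium also expresses, gave 58.9% to 88.2% of the summed dendritic cell level. Without it and Cacnb3, the other 16 markers summed to 21.1 to 21.5 CPM in vehicle, 13.7 to 28.1 with JQ1, 19.8 to 26.3 with anti-PD-1 and 15.6 to 21.6 CPM with the combination. The B cell sum was 2.60 to 3.44 CPM in vehicle, 2.35 to 3.88 with JQ1, 3.19 to 4.89 with anti-PD-1 and 0 to 3.79 CPM with the combination.

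Macrophage and monocyte markers, 16 of 18 tested, had 0 that rose and 1 that fell, beside 4.22% and 4.05% of all tested genes. Their median was 0.07, beside 0.06 over all tested genes. The complement genes C1qa and C1qc were at 1.02 and 0.97 and the integrin Itgam at 0.96, none of them called. The calls of the class I, class II region, macrophage and alveolar type 2 lists each went to 0 without vehicle replicate 1, vehicle replicate 2 or anti-PD-1 replicate 2. Calls in these lists other than macrophage also went to 0 without anti-PD-1 replicate 1. Those of the class I list went to 0 without JQ1 replicate 2 or combination replicate 2, and those of the class II region without JQ1 replicate 1 or combination replicate 2. Without JQ1 replicate 1, 3 class I genes fell. The sum of the 18 macrophage and monocyte markers was 293 to 483 CPM in vehicle, 185 to 270 with JQ1, 379 to 417 with anti-PD-1 and 233 to 426 CPM with the combination. Lyz2, which alveolar type 2 cells also express, gave 20.7% to 65.1% of it. Without Lyz2 the sum was 166 to 169 CPM in vehicle, 143 to 147 with JQ1, 184 to 208 with anti-PD-1 and 103 to 202 CPM with the combination. Of 9 tested alveolar macrophage markers none passed, with Chil3 at 0.91, Marco at 0.35, Pparg at −0.16 and Siglecf at −1.05, and their sum was 203 to 207, 169 to 218, 156 to 384 and 167 to 262 CPM in the same order. Krt79 alone was at 254 CPM in anti-PD-1 replicate 2, and without it the sum was 174 to 192, 168 to 188, 130 to 138 and 163 to 257 CPM. The 4 tested general leukocyte markers had a median of −0.16, with none called and sums of 34.4 to 41.1, 24.1 to 35.2, 37.8 to 48.3 and 34.5 to 47.8 CPM. Among them Ptprc, which encodes CD45, was at −0.04, Cd53 at 0.03, Coro1a at −0.27 and Laptm5 at −0.38. Lck was the 1 T cell marker tested, at −1.65 without passing, and the 14 T cell markers summed to 2.21 to 4.30, 2.0 to 2.41, 4.70 to 7.75 and 2.10 to 2.64 CPM.

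Alveolar type 2 markers summed to 8541 to 12283 CPM in vehicle, 6599 to 8449 with JQ1, 8420 to 9984 with anti-PD-1 and 9343 to 11517 CPM with the combination. Of 13 tested, 1 rose and 2 fell for JQ1 over both backgrounds, beside 4.22% and 4.05% of all tested genes. Napsa, an aspartic protease of surfactant processing, rose by 1.10 (SE 0.24). Nkx2-1, the lineage transcription factor, and Etv5, a target of the ERK pathway, fell by 1.08 (SE 0.24) and 1.32 (SE 0.30). The adjusted p of these 3 were 0.0302, 0.0304 and 0.0342 in edgeR. Hc was at −1.30 without passing. Endothelial markers had 4 of 10 that rose and 0 that fell, beside 4.22% and 4.05% of all tested genes. Their median was 0.76, beside 0.06 over all tested genes. Flt1 was at 0.91 (SE 0.20, adjusted p = 0.0291 in edgeR), Pecam1 at 1.20, Egfl7 at 1.11 and Cldn5 at 1.70. No endothelial marker was called without any 1 of the vehicle or anti-PD-1 libraries or without combination replicate 2, and 1 was without either JQ1 library. The markers summed to 129 ± 34.5 CPM (SD, n = 2), 209 ± 12.7, 182 ± 0.648 and 261 ± 27.6 CPM in the same order of groups. The part of changes in cell numbers in the levels of the class II members was not tested.

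The genes whose log2 CPM over the 8 libraries was most like the mean standardised level of H2-Aa, H2-Ab1, H2-Eb1 and Cd74 were Gm6863, Rpl9, Itga5, Col16a1, Hkdc1, Syt12, Copz1, Atp5b, Stat5a and Slc41a2. Pearson's r lay between 0.959 and 0.973, the highest among 11497 genes compared. It describes 8 libraries that differ in depth and in Gm42418 share, and the part of these differences in r was not tested. H2-Eb1 had an r of 0.11 with H2-Aa and 0.04 with Cd74, so the mean level is not the pattern of the A chains alone. That mean was 0.33 in combination replicate 2 and 0.20 in vehicle replicate 2. Rpl9, a ribosomal protein gene, was at 588 and 445 CPM in vehicle, 602 and 665 with anti-PD-1, 416 and 350 with JQ1, and 260 and 515 CPM with the combination. At the other end were Gm45250, Fgf1, Gfod2, Gm36955 and Hook2, with r between −0.981 and −0.964. Fgf1, a fibroblast growth factor, was at 14.7 and 19.5 CPM in vehicle, 14.7 and 9.77 with anti-PD-1, 23.4 and 38.4 with JQ1, and 55.1 and 21.9 CPM with the combination. Only tested genes with a mean log2(CPM + 0.5) of at least 1 were compared, so markers below that level could not appear. None of the dendritic cell, B cell or macrophage markers listed was among these 15 genes.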

How the data were processed

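The count table deposited by the authors gives unnormalized read counts, 1 row per symbol. The normalized table deposited by the authors holds a signal, the counts divided by 1 factor per library. Multiplied back, 99.996% to 100% of values were whole within 0.05 reads. On these recovered reads, an alternative added after seeing the data, edgeR called 1166 genes for JQ1 over both backgrounds. Libraries came from the TruSeq RNA Access kit, per the labels' protocols. STAR, featureCounts, DESeq2 and GRCm38 are named in the submitters' processing notes. Versions, annotation and strand use are not stated in the sources used here.

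Counts were tested with edgeR 4.0.16 (robust quasi-likelihood, filterByExpr, TMM, a mean per group, 4 residual degrees of freedom) in R 4.3.3, in 8 comparisons, and adjusted by Benjamini-Hochberg over 14085 genes, with calls at 0.05. "Rose" and "fell" mean calls. The step was tested on simulated data. Fold changes have a prior count of 0.125. DESeq2 1.42.0 and limma 3.58.1 were alternatives. No library was a copy of another: chi-square per degree of freedom was at least 19.4 within groups and 17.3 between groups. Replicates were numbered in accession order. Counts limit precision to counting error at best. Symbols matched GENCODE vM21 for 48108 of 52459. All members were named throughout. Of other lists, the 3 genes with the smallest p in JQ1 or the combination against vehicle, called genes and a few chosen for their role after values were seen were named. Members and lists were chosen with earlier results of these data known. The Xist comparison and the marker sums without Lyz2 or Krt79 were added after seeing the data. A few genes of the other lists are not reported here by name.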

Additional observations from a re-analysis of the deposited data

How the results depend on the processing

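Of 1103 values of the members under other settings, 1023 kept their direction. These settings, and the alternatives for H2-Aa that follow, include the reads recovered from the normalized table. Those reads gave the same H2-Aa result as the deposited counts and are no separate check. H2-Aa for JQ1 over both backgrounds was called in 13 of 17 alternatives, at −3.48 to −2.41 when 1 library was left out. Where this left a group with 1 library, that library is assumed to vary like the others. No paired analysis was possible because the labels carry no replicate numbers shared between groups. Low counts of H2-Oa, H2-Ob, H2-DMb2 and of all members in combination replicate 1 limit what can be seen. The cause was not tested for any change below.

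In the order vehicle against JQ1, anti-PD-1 and the combination, then the combination set against anti-PD-1 and JQ1, JQ1 over both, anti-PD-1 over both and the interaction, genes called were 0, 0, 676, 596, 3, 1166, 2 and 0. DESeq2 called 85, 11, 1628, 1566, 419, 2117, 182 and 17, and no filter on low counts 250, 55, 1992, 1920, 672, 2527, 426 and 138. With 1 library left out the ranges were 0 to 17, 0 to 1, 7 to 1115, 3 to 967, 0 to 114, 17 to 1716, 0 to 43 and 0 to 1. limma voom called 1 gene for JQ1 against vehicle, 5 for the combination against JQ1 and 1 for anti-PD-1 over both. limma trend called 8 for the combination against JQ1. For anti-PD-1 over both, limma trend, RLE factors, upper-quartile factors and a mean count of at least 50 gave 0. With only the libraries compared, the counts were 1 for JQ1 against vehicle, 245 and 57 for the combination against vehicle and anti-PD-1, and 0 against JQ1.

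Members called by DESeq2 were 1 for JQ1 against vehicle, 1 for the combination against vehicle, 2 against anti-PD-1 and 2 for JQ1 over both. With no filter they were 2, 3, 3 and 3. limma voom called 1 for the combination against anti-PD-1 and 2 for JQ1 over both, and limma trend 1 for the former. With 1 library left out, 0 to 1 were called for the combination against anti-PD-1 and 0 to 3 for JQ1 over both. Without the 2 libraries farthest in Ciita, Pearson's r was −0.145 for H2-Ab1, −0.0691 for H2-Eb1, −0.204 for Cd74 and −0.112 for H2-DMb1.

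None of the values that changed sign was called. H2-DMa for the combination against JQ1 went from 0.0017 to −0.00355 with RLE, −0.067 with upper-quartile factors, −0.065 with no filter, −0.093 with DESeq2, −0.50 with limma voom, −1.77 with limma trend, −0.070 with only the libraries compared and −0.024 without Gm42418. In the same comparison H2-DMb2 was 0.12 with limma voom and H2-Ab1 −0.16 with limma trend. H2-DMb1 was −0.047 with limma voom and −0.81 with limma trend for the combination against vehicle, −0.011 with DESeq2, −0.090 with limma voom and −0.49 with limma trend for JQ1 over both, and −0.32 with limma trend for anti-PD-1 over both. With limma trend H2-DMa was −0.55 for anti-PD-1 over both and H2-Aa −0.18 for the interaction.

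The signs that turned when 1 library was left out gave these ranges. For JQ1 against vehicle, H2-DMb1 was −0.44 to 0.92 and Ciita −1.98 to 0.31. For anti-PD-1 against vehicle, H2-Eb1 was −0.13 to 4.14, Cd74 −0.33 to 0.55 and Ciita −0.45 to 0.13. For the combination against vehicle, H2-Eb1 was −1.93 to 3.02, H2-DMa −8.19 to 0.091 and H2-DMb1 −2.61 to 0.83. For the combination against anti-PD-1, H2-Eb1 was −5.15 to 2.32 and H2-DMb1 −3.02 to 0.43. For the combination against JQ1, H2-Aa was −0.83 to 1.53, H2-Ab1 −1.63 to 1.12, H2-Eb1 −4.29 to 0.67, Cd74 −0.80 to 2.03, H2-DMa −7.57 to 0.73, H2-DMb1 −3.01 to 0.58, H2-DMb2 −1.43 to 1.46 and Ciita −1.95 to 0.34. For JQ1 over both, H2-Eb1 was −1.40 to 2.33 and H2-DMb1 −1.31 to 0.41. For anti-PD-1 over both, H2-Aa was −0.12 to 1.06, H2-Ab1 −0.55 to 0.82, H2-Eb1 −0.53 to 2.0, Cd74 −0.31 to 1.10, H2-DMa −3.42 to 0.72, H2-DMb1 −1.30 to 0.49, H2-DMb2 −1.14 to 0.30 and Ciita −1.04 to 0.11. For the interaction, H2-Aa was −1.43 to 0.94, H2-Ab1 −2.16 to 0.59, Cd74 −0.97 to 1.85, H2-DMa −8.29 to 0.013, H2-DMb1 −3.42 to 0.17, H2-DMb2 −0.58 to 2.30 and Ciita −1.81 to 0.46.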
